A study of Mus musculus with 4 samples.

Results

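Nlgn2 encodes neuroligin-2, a postsynaptic membrane protein that binds presynaptic neurexins. In mammals it is concentrated at inhibitory synapses, where it recruits the scaffold protein gephyrin through collybistin and helps to gather GABA-A and glycine receptors. Astrocytes also express neuroligins, which take part in astrocyte contact with synapses. The values below describe the RNA of this 1 gene of the 140 genes on the panel, chosen by its name, across 16 cell populations of the neonatal mouse brain. The gene (GRCm38 chr11:69823123-69837784, minus strand) spans 14662 bp in the RefSeq annotation.

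The RNA was counted in coronal sections 10 µm thick by MERFISH, in which single RNA molecules are identified in tissue from barcodes read over repeated rounds of hybridization and imaging. Mice were taken at postnatal day 5, 24 h after their right whiskers were lesioned (postnatal day 4). Each of the 4 coverslips held 1 section of a wild-type mouse and 1 section of a mouse without Cx3cl1 (Cx3cl1 -/-), which encodes fractalkine. Sections of coverslips 1 and 2 came from males, those of coverslips 3 and 4 from females. All animals of all groups carried the lesion. Genotype, hemisphere and brain region were not assigned to cells here, so every value pools both genotypes and both sides of the brain, and no effect of the lesion or of Cx3cl1 is given. The replicate was the coverslip (n = 4). The labels do not say whether its sections came from animals used on no other coverslip, so the spread between coverslips may be partly technical.

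The files held 863580 segmented cells and 192921713 gene counts, of which 5873173 (3.04%) were Nlgn2. Nlgn2 gave 1158055, 1142020, 1431761 and 2141337 counts on coverslips 1 to 4. Depth differed between coverslips: the median gene count per cell was 123, 147, 175 and 268. After cells under 20 gene counts were left out, 794833 cells remained. No count vector of the 719438 cells with 50 or more counts occurred on more than 1 coverslip. Coverslip 4 had the highest Nlgn2 count per cell volume and coverslip 2 the lowest in 16 of the 16 populations. Per gene count the order was different: coverslip 1 was highest in 14 of 16 populations and coverslip 4 lowest in 13. Levels are therefore compared between populations within coverslips, and the SD values below include this difference between coverslips.

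Cells were grouped by 32 marker genes that do not include Nlgn2. Of the populations, 9 were rich in Meg3, a noncoding RNA abundant in neurons (mean share of gene counts 24.9% to 40.0%), and 7 were poor in it (2.48% to 6.13% in the 6 described here). A population was named after a cell type only where at least 3 markers of that type were raised and above the blanks, and the others are called by their leading genes. The Gad1/Gad2 cluster had Gad1 (7.74-fold) and Gad2 (6.64-fold), but its other raised marker, Pvalb, was not above the highest blank barcode there, so it is called by its genes. The named populations were Sst inhibitory neuron-like cells, Cux2/Rorb excitatory neuron-like cells, microglia-like cells, cells like oligodendrocyte precursors (OPC-like), and Gfap-high and Gfap-low astrocyte-like cells. Not all names rest on equally strong markers. In Cux2/Rorb excitatory neuron-like cells the third marker, Slc17a6, was 1.69-fold higher than in the other cells. Csf1r was 108-fold, Cx3cr1 72.0-fold and C1qa 38.3-fold higher per volume in microglia-like cells than in the other cells, and Pdgfra was 40.5-fold and Sox10 26.0-fold higher in OPC-like cells. The marker genes held fewer than 3 for any 1 vessel cell type, so this rule could not name the vessel-gene cluster. Its leading genes were Cldn5 (125-fold), Pecam1 (28.6-fold) and Pdgfrb (16.8-fold). These folds describe how the populations were made and are not results.

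Nlgn2 was present in every population above the false decoding measured by the 40 blank barcodes. Its count per cell was 6.13 to 7.26 times that of the highest blank in the vessel-gene cluster, the population with the lowest ratio, over the 4 coverslips. The same ratio was 8.34 to 11.6 in microglia-like cells and 44.4 to 60.7 in OPC-like cells. A cell of the Rorb cluster held a median of 11 to 17 Nlgn2 counts and an OPC-like cell 4 to 6, whereas the median was 1 in the vessel-gene cluster and 0 or 1 in microglia-like cells.

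Per cell volume, the Rorb cluster held the most Nlgn2. Rorb is a transcription factor gene best known in layer 4 of the cortex. The Rorb cluster (12821 cells) had 14.89, 13.12, 15.07 and 20.64 Nlgn2 counts per 1000 units of cell volume on coverslips 1 to 4, a mean of 15.93 ± 3.26 (SD, n = 4). It ranked first of 16 on each of the 4 coverslips.

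The other Meg3-rich populations followed in small steps. The Bcl11b cluster, led by a transcription factor gene of deep cortical layers and striatum, had 12.84 ± 2.20 counts per 1000 volume units. The Slc17a6 cluster, led by the gene of the vesicular glutamate transporter VGLUT2, had 12.09 ± 2.19, and Cux2/Rorb excitatory neuron-like cells had 11.95 ± 2.27. Next came the cluster without a leading marker (11.53 ± 2.89), the Syt6 cluster (10.59 ± 2.03) and the Bcl11b/Syt6/Gad2 cluster (9.65 ± 1.58), all in the same unit.

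Populations with Gad1 and Gad2, the genes of the enzymes of GABA synthesis, lay in the lower part of the Meg3-rich range. The Gad1/Gad2 cluster had 11.49, 8.23, 10.72 and 13.22 Nlgn2 counts per 1000 volume units on coverslips 1 to 4 (10.92 ± 2.07). Sst inhibitory neuron-like cells (Sst 97.1-fold), which also carry the gene of the peptide somatostatin, had 9.89, 7.38, 10.88 and 13.52 (10.42 ± 2.54). The Bcl11b/Syt6/Gad2 cluster, which held Gad2 at 78.3 ± 4.5% and Gad1 at 38.4 ± 9.9% of their highest level, had the lowest mean of the Meg3-rich populations (9.65). The means of the other 6 Meg3-rich populations ran from 10.59 to 15.93, so that the Gad1/Gad2 cluster lay inside this range and Sst inhibitory neuron-like cells just below it, by less than the spread between coverslips.

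OPC-like cells came between the Meg3-rich populations and the astrocyte-like cells. OPC-like cells had 7.98, 5.64, 7.18 and 8.78 (7.40 ± 1.34), below all 9 Meg3-rich populations on each of the 4 coverslips.

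Astrocyte-like, vessel and immune populations held the least. Gfap-low astrocyte-like cells had 3.96, 3.04, 3.78 and 5.00 counts per 1000 volume units (3.94 ± 0.80) and Gfap-high astrocyte-like cells 3.18, 2.37, 3.59 and 4.39 (3.38 ± 0.84). The Mrc1/Lyve1 cluster, led by receptor genes of border macrophages but with genes of other border cells as well, had 3.02 ± 0.47. Microglia-like cells had 2.05, 1.45, 1.74 and 2.30 (1.89 ± 0.37), and the vessel-gene cluster had 1.82, 1.45, 1.82 and 2.19 (1.82 ± 0.30). Gates on marker counts were also used in place of clusters, with all cells of the 4 coverslips pooled. The gated microglia level was 3.55 counts per 1000 volume units and 188.3 per 10000 gene counts, close to gated astrocytes (3.86 and 162.4). The gated vessel level was 1.46 and 79.3. The order of microglia among these populations therefore depended on how the cells were chosen. In the clusters, the highest of the 4 values in each of these 5 populations was below the lowest value of OPC-like cells.

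**Figure D1:**
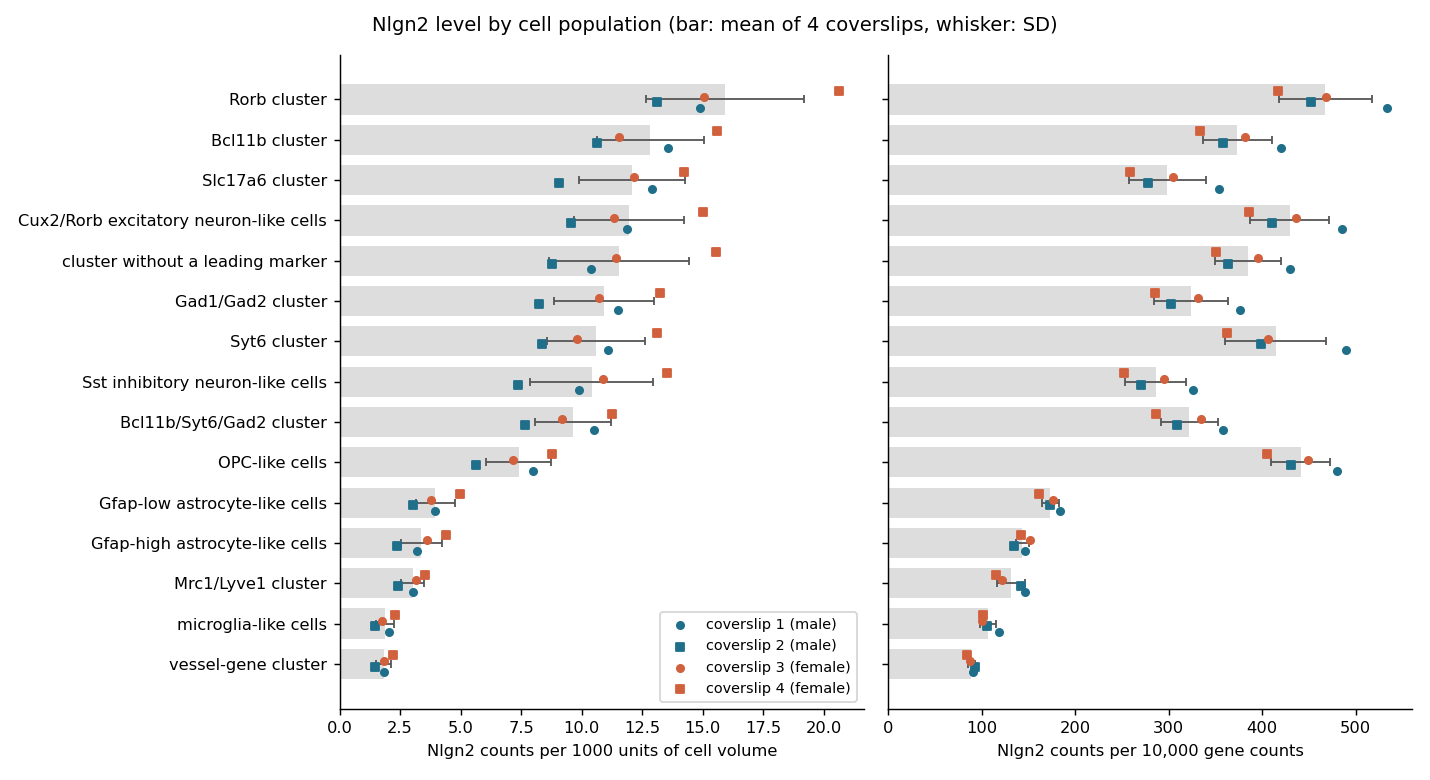
Nlgn2 counts per 1000 units of cell volume (left) and per 10000 gene counts (right) in 15 of the 16 populations. Bars are means of 4 coverslips, whiskers are SD and each symbol is 1 coverslip; the Rorb cluster is highest per volume (15.93) and the vessel-gene cluster lowest under both scalings (1.82 and 89.2).

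Scaling by gene counts moved OPC-like cells up and the populations richest in Meg3 down. A gene count total depends on which genes the panel holds, and Meg3 alone gave 28.0% of all gene counts. Per 10000 gene counts OPC-like cells had 479.8, 430.4, 448.7 and 404.7 Nlgn2 counts (440.9 ± 31.6), a mean above 8 of the 9 Meg3-rich populations, whereas per volume they lay below all 9. The Rorb cluster stayed above them with 533.9, 451.7, 468.5 and 416.4 (467.6 ± 49.2). These populations overlapped across coverslips.

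The populations richest in Meg3 fell in the order. The Slc17a6 cluster had 298.7 ± 41.2 Nlgn2 counts per 10000 gene counts and exceeded 1 other Meg3-rich population by mean, against 6 per volume. Meg3 made up 40.0% of its gene counts. Sst inhibitory neuron-like cells had 286.0 ± 32.3, the lowest mean of the Meg3-rich populations. When Meg3 was taken out of the gene count total, OPC-like cells had 469.7 ± 34.2 counts per 10000 and lay below 8 of the 9 Meg3-rich populations by mean, while the Rorb cluster was highest with 666.4 ± 51.7.

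The last 5 populations kept their order of means under both scalings. Per 10000 gene counts, Gfap-low astrocyte-like cells had 183.5, 173.5, 176.0 and 161.8 Nlgn2 counts (173.7 ± 9.0) and Gfap-high astrocyte-like cells 146.0, 134.6, 152.1 and 142.4 (143.8 ± 7.3). Microglia-like cells had 119.1, 106.1, 100.7 and 101.7 (106.9 ± 8.5) and the vessel-gene cluster 91.2, 93.2, 87.8 and 84.7 (89.2 ± 3.7). On each coverslip the vessel-gene cluster lay below microglia-like cells.

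Each population was then compared with the mean of the other 15, to ask where Nlgn2 differed by more than 2-fold. Counts summed per coverslip and population entered 1 edgeR quasi-likelihood fit with coverslip as a block. The tests covered the 108 genes that did not define the populations, with Benjamini-Hochberg adjustment over those genes. Over all 16 contrasts with cell volume as offset, 11.8% of the tests called a gene over 2-fold higher and 13% over 2-fold lower. Standard errors and p-values rest on the spread over all populations and coverslips in the fit.

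Per cell volume, Nlgn2 was called over 2-fold higher in 1 population, the Rorb cluster, where 20.4% of the tested genes were called higher. Its log2 difference was 1.25 ± 0.041 (SE; 2.37-fold; edgeR adjusted p = 8.46e-07), against a median of 0.39 over the tested genes. The call was lost without the coverslip block (log2 1.24, adjusted p = 0.106) and with TMM factors in place of the volume offset (log2 0.93).

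Nlgn2 was called over 2-fold lower in 4 populations. In the vessel-gene cluster it was 4.25-fold lower (log2 -2.09 ± 0.057, edgeR adjusted p = 2.52e-28), with 27.8% of the tested genes called lower and a median of -0.30. Of the tested genes, 2 had a lower log2 value there. In microglia-like cells it was 4.11-fold lower (log2 -2.04 ± 0.057, adjusted p = 5.58e-27). There, however, 70.4% of the tested genes were called lower and the median was -1.41, so that 14 genes lay below Nlgn2.

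The remaining calls were smaller. In the Mrc1/Lyve1 cluster Nlgn2 was 2.47-fold lower (log2 -1.31 ± 0.053, edgeR adjusted p = 8.11e-09), where 13% of the tested genes were called lower. In Gfap-high astrocyte-like cells it was 2.22-fold lower (log2 -1.15 ± 0.053, adjusted p = 0.00095), with 8.33% called lower. The call in Gfap-high astrocyte-like cells ended without the coverslip block (adjusted p = 0.272), with TMM factors (0.579) and among cells of like gene counts (0.393). The call in microglia-like cells ended with TMM factors (log2 -1.05, adjusted p = 0.248) and with marker gates in place of clusters (log2 -1.13, adjusted p = 0.0956).

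Gfap-low astrocyte-like cells had a log2 difference of -0.91 ± 0.051 and were not called past 2-fold. OPC-like cells did not differ from the mean of the others in an edgeR test against no difference (log2 0.06 ± 0.047, adjusted p = 0.178). The median tested gene was at -0.68 in OPC-like cells, and 93 of the 108 tested genes had a lower log2 value than Nlgn2 there.

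With summed gene counts as offset, 10.8% of the tests over all 16 contrasts called a gene higher and 9.55% lower. Nlgn2 was called lower in 3 populations and higher in 0. It was 3.22-fold lower in the vessel-gene cluster (log2 -1.69 ± 0.042, edgeR adjusted p = 2.67e-24; 13% called lower) and 2.66-fold lower in microglia-like cells (log2 -1.41 ± 0.041, adjusted p = 3.12e-15; 24.1% called lower). In the Mrc1/Lyve1 cluster it was 2.13-fold lower (log2 -1.09 ± 0.040, adjusted p = 0.0029; 12% called lower), a call lost without coverslip 3 (adjusted p = 0.0751) and without the coverslip block (0.0658). The microglia call was lost with TMM factors (log2 -1.05) and with marker gates (log2 -0.60).

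A change of offset shifts all genes of a contrast by about the same amount, so the distance of Nlgn2 from the median tested gene hardly depends on it by construction. With volume as offset Nlgn2 stood 0.85 above that median on the log2 scale in the Rorb cluster and 0.75 above it in OPC-like cells. It stood 0.64 below it in microglia-like cells, 0.97 below it in Gfap-high astrocyte-like cells and 1.79 below it in the vessel-gene cluster.

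**Figure D2:**
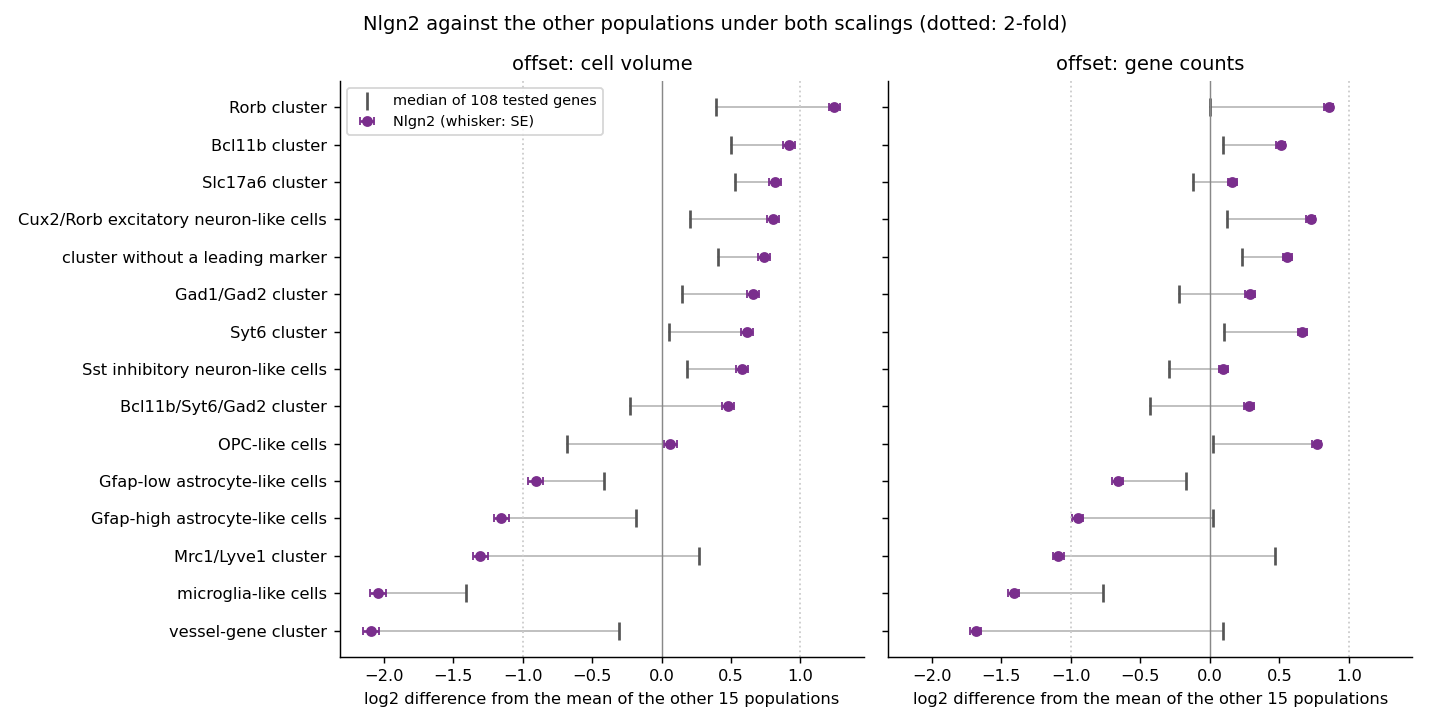
Log2 difference of Nlgn2 from the mean of the other 15 populations (circles, whiskers are SE) and of the median of the 108 tested genes (ticks), with cell volume (left) and gene counts (right) as offset. Nlgn2 lies above the median tick in OPC-like cells and every Meg3-rich population, and below it in the other 5 populations shown.

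Which neighbours in the order differ was asked with edgeR tests of each pair against no difference. Per volume Nlgn2 differed in 102 of 120 pairs and per gene count in 111 of 120, beside 83.1% and 82.3% of all such tests over the 108 genes. Of 15 pairs of neighbours in the order per volume, 6 differed. The Rorb cluster exceeded the Bcl11b cluster by a log2 value of 0.31 ± 0.064 (edgeR adjusted p = 4.34e-05), higher on 4 of 4 coverslips. From the Bcl11b cluster down to the Bcl11b/Syt6/Gad2 cluster, no Meg3-rich population differed from the next Meg3-rich one below it (edgeR adjusted p from 0.186 to 0.869). Small steps do not make the ends of this range alike. Against the mean of the other 15 populations, the Bcl11b cluster was at log2 0.92 ± 0.043 and the Bcl11b/Syt6/Gad2 cluster at 0.48 ± 0.045.

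Below them the steps were larger. The Bcl11b/Syt6/Gad2 cluster exceeded OPC-like cells by 0.39 ± 0.064 on the log2 scale (edgeR adjusted p = 2.35e-07) and OPC-like cells exceeded Gfap-low astrocyte-like cells by 0.91 ± 0.065 (adjusted p = 4.89e-19), each on 4 of 4 coverslips. Gfap-low exceeded Gfap-high astrocyte-like cells by 0.23 ± 0.064 (adjusted p = 0.0022), again on 4 of 4. Per gene count the same difference between the astrocyte-like populations was 0.27 ± 0.049 (adjusted p = 3.65e-06). Microglia-like cells and the vessel-gene cluster did not differ per volume (0.04 ± 0.065, adjusted p = 0.514) but differed per gene count (0.26 ± 0.049, adjusted p = 5.42e-06).

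Dividing by volume left little dependence on cell size. Between the smallest and the largest quartile of cells of a population, mean volume rose 2.83- to 3.99-fold. Nlgn2 per volume in the largest quartile was 0.90 times that in the smallest in OPC-like cells and 1.17 times in the Rorb cluster, with the highest ratio, 1.26, in the cluster without a leading marker. Spread among the cells of a population exceeded counting error: the variance of the Nlgn2 count over its mean was between 2.80 in the Mrc1/Lyve1 cluster and 6.63 in the cluster without a leading marker. These counts per cell were not scaled by volume, so differences in cell size are part of this spread. Between the quartiles the count per cell rose 3.01-fold (Cux2/Rorb excitatory neuron-like cells) to 5.01-fold (cluster without a leading marker).

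Nlgn2 and Meg3 parted in OPC-like cells and also in astrocyte-like cells. Levels per volume were set against the population in which each gene was highest, since counts of different genes depend on their probes. Nlgn2 in OPC-like cells was at 46.7 ± 5.2% of its level in the Rorb cluster. Meg3 was at 6.36 ± 0.82% of its level in the Slc17a6 cluster and Gad1 at 8.39 ± 1.89% of its level in Sst inhibitory neuron-like cells. The Nlgn2 share exceeded both others on each of the 4 coverslips. The Nlgn2 share was above the Meg3 share in the other Meg3-poor populations described here too. In Gfap-low astrocyte-like cells Nlgn2 was at 24.8 ± 1.4% and Meg3 at 4.44 ± 0.37%. In Gfap-high astrocyte-like cells they were at 21.1 ± 2.4% and 3.53 ± 0.46%. In microglia-like cells Nlgn2 was at 11.9 ± 1.3% and Meg3 at 3.43 ± 0.43%. In the Syt6 cluster, whose markers are of deep cortical layers, Nlgn2 was at 66.6 ± 5.2% while Gad1 was at 3.15 ± 0.25%.

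**Figure D3:**
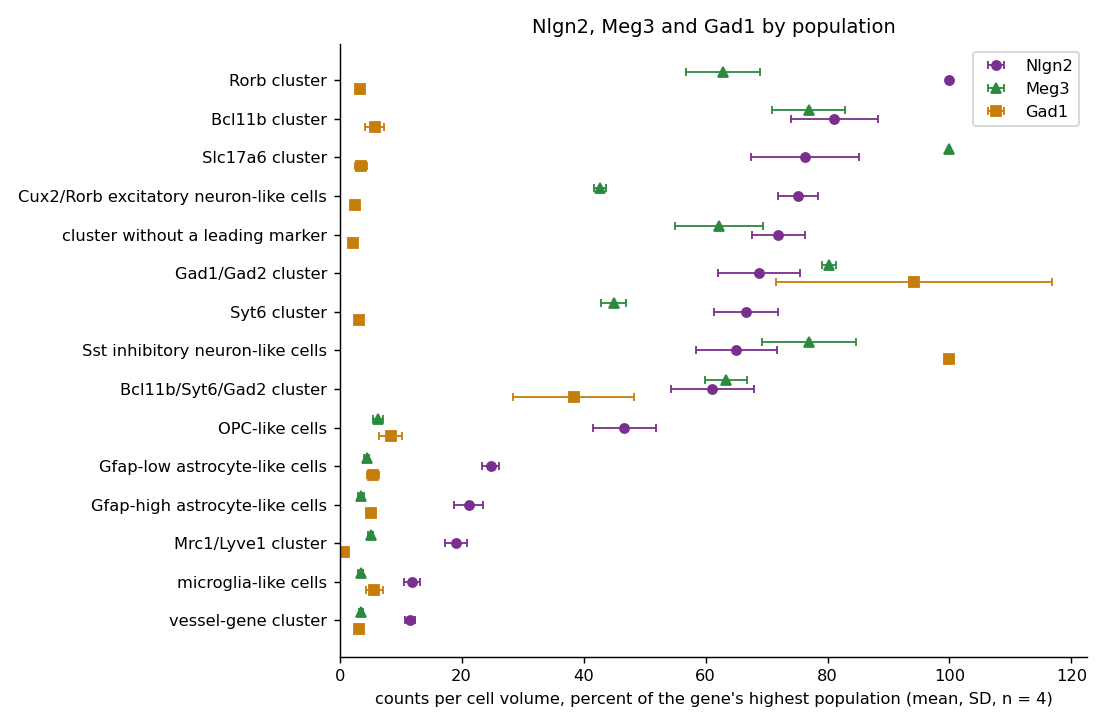
Level per cell volume of Nlgn2, Meg3 and Gad1 in each population, in percent of the population in which that gene is highest (means and SD of 4 coverslips). In OPC-like cells Nlgn2 (46.7%) stands far above Meg3 (6.36%).

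The genes whose pattern over the 16 populations was most like that of Nlgn2 were the same 5 under both scalings. Per volume they were Porcn, which encodes the acyltransferase of Wnt proteins (Pearson r = 0.94), the glypican gene Gpc1 (0.93), the ubiquitin ligase gene Btrc (0.92), the kinase gene Gsk3b (0.90) and Apc (0.90), a gene of the beta-catenin destruction complex. Per gene count r was 0.90 for Porcn, 0.88 for Btrc, 0.86 for Gpc1, 0.85 for Gsk3b and 0.83 for Apc. The most opposite patterns per volume were those of the Wnt co-receptor gene Lrp5 (-0.90), Apoe (-0.89) and the syndecan gene Sdc4 (-0.84). Per gene count the most opposite were Pdgfrb (-0.84), Slc9a3r1 (-0.81) and Id1 (-0.80), of which Pdgfrb had helped to define the populations. The correlation with Meg3 was 0.81 per volume and 0.64 per gene count, and with Gad1 0.26 and 0.09. These are descriptions of log2 means over 16 populations that share coverslips, depth and gene totals.

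Of 18 genes listed as inhibitory synapse genes, 3 were on the panel: Nlgn2, Gad1 and Gad2. The last pair defined populations and was not tested. A list for contact of astrocytes with synapses held 20 names, of which Sparcl1 and Hevin stand for the same gene. On the panel were 9, namely Nlgn2, the glypican genes Gpc1 to Gpc6, Ezr, which links membrane to actin, and Slc9a3r1, a scaffold of ezrin. In Gfap-low astrocyte-like cells 3 of the 8 other members were called over 2-fold higher per volume by edgeR (Slc9a3r1 at log2 2.70, Ezr at 1.86 and Gpc5 at 1.48) and 1 lower (Gpc3 at -1.45), with a median of 0.56 beside -0.41 over all tested genes. Of all tested genes 17.6% were called higher and 6.48% lower there. Nlgn2, at -0.91, was on the other side of 0 from the called members Slc9a3r1, Ezr and Gpc5. In the Rorb cluster 5 of 8 were called higher, Gpc5 furthest (log2 3.04), and 1 lower (Slc9a3r1 at -1.22), with a median of 1.28 beside 0.39, where 20.4% of all tested genes were called higher and 4.63% lower. In microglia-like cells 5 of 8 were called lower and 0 higher, no more often than the 70.4% of all tested genes called lower, and the median was -1.84 beside -1.41.

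Position was compared next, since Nlgn2 is known at inhibitory synapses. Within each of 12 populations, cells in the nearest tertile by distance to a cell of the Gad1/Gad2 cluster or an Sst inhibitory neuron-like cell (Gad1/Gad2 or Sst cells) were compared with those in the farthest tertile, by edgeR with volume as offset over all 140 genes. The Bcl11b/Syt6/Gad2 cluster, which also held Gad1 and Gad2, was compared as a population and was not among the cells measured to. Cells called far can therefore lie close to cells of that cluster, and distance here is not distance to every cell with Gad1 or Gad2. Near and far cells also differ in brain region, which was not assigned here. Over the 12 contrasts, 23.1% of the tests called a gene higher near and 22.9% lower near. Nlgn2 was called higher near in 6 populations and lower in 0.

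In microglia-like cells near Gad1/Gad2 or Sst cells, Nlgn2 was 2.35, 1.69, 2.09 and 2.59 counts per 1000 volume units on coverslips 1 to 4, and far from them 1.63, 1.12, 1.63 and 1.96. The near value was higher on 4 of 4 coverslips, although near and far values overlapped. The log2 difference was 0.47 ± 0.092 (edgeR adjusted p = 3.24e-06), where 22.9% of genes were called higher near. The Meg3 share of gene counts also rose, to 1.74 ± 0.27 times that of far cells, and Gad1 per volume to 4.73 ± 0.77 times; their part in the result was not tested.

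Gfap-high astrocyte-like cells had 3.74, 2.80, 4.24 and 4.92 near and 2.52, 1.84, 2.98 and 3.91 far. These values overlapped too, and the near value was the higher on 4 of 4 coverslips (log2 0.50 ± 0.081, edgeR adjusted p = 2.07e-05). In this population 42.9% of genes were called higher near. Gad1 near was 4.34 ± 0.31 times its level far, and the Meg3 share 1.20 ± 0.20 times; their part in the result was not tested.

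In the vessel-gene cluster the near values were 2.10, 1.54, 2.02 and 2.37 and the far values 1.62, 1.34, 1.68 and 2.07 (log2 0.26 ± 0.044, edgeR adjusted p = 0.000208; 28.6% called higher near). OPC-like cells had 8.51, 5.88, 7.56 and 9.20 near and 7.48, 5.27, 6.87 and 8.56 far (log2 0.15 ± 0.027, adjusted p = 0.000203; 34.3% called higher near). Both populations were higher near on 4 of 4 coverslips and overlapped between near and far. In the vessel-gene cluster the Meg3 share near was 1.28 ± 0.061 times that far, and Gad1 4.80 ± 1.05 times. In OPC-like cells the Meg3 share was lower near (0.865 ± 0.024 times), while Gad1 was 3.00 ± 0.19 times its level far. The part of either gene in these results was not tested.

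The calls included a pair of Meg3-rich populations. The cluster without a leading marker had 11.51, 9.32, 11.57 and 16.19 near and 8.36, 7.53, 10.48 and 14.24 far (log2 0.27 ± 0.070, edgeR adjusted p = 0.000314; 22.9% called higher near). The Slc17a6 cluster had 13.73, 9.71, 12.48 and 15.01 near and 12.60, 8.30, 11.92 and 13.62 far (log2 0.14 ± 0.058, adjusted p = 0.0469; 23.6% called higher near). Near and far overlapped in both per volume, and the call in the Slc17a6 cluster was lost when any 1 coverslip was left out and with DESeq2 (adjusted p = 0.0811). Per 10000 gene counts the Slc17a6 cluster had 416.1, 331.7, 363.0 and 303.3 near and 288.3, 227.4, 252.7 and 218.7 far, without overlap. That near over far ratio was 1.43 (1.39 to 1.46), and 1.29 (1.08 to 1.44) in the Syt6 cluster. In the other Meg3-rich populations compared it ran from 0.994 (Bcl11b cluster) to 1.11 (cluster without a leading marker). Total gene counts per cell in the Slc17a6 cluster were lower near (252.9, 251.8, 287.5 and 425.8) than far (340.9, 325.0, 393.7 and 540.9). Mean volume near was 0.985 times that far. With volume as offset, 43.6% of genes were called lower near in the Slc17a6 cluster and 37.1% in the Syt6 cluster. The part of the lower totals in these ratios was not tested. With volume as offset, Gfap-low astrocyte-like cells (0.04 ± 0.035), the Rorb cluster (0.16 ± 0.062, edgeR adjusted p = 0.0709), the Bcl11b cluster, the Syt6 cluster, Cux2/Rorb excitatory neuron-like cells and the Bcl11b/Syt6/Gad2 cluster did not pass. The Mrc1/Lyve1 cluster was left out of this test, and its near value was the higher on 1 of 4 coverslips.

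Several of these calls depended on the measure of nearness. With the number of Gad1/Gad2 or Sst cells among the 30 nearest cells in place of distance, edgeR called Nlgn2 higher in 3 populations and lower in 1. The log2 difference became 0.03 in microglia-like cells (adjusted p = 0.809), 0.10 in Gfap-high astrocyte-like cells (0.317), 0.02 in the vessel-gene cluster (0.748) and -0.08 in OPC-like cells (0.0732). In Gfap-low astrocyte-like cells it became -0.29 (adjusted p = 0.00031), lower where Gad1/Gad2 or Sst cells were more frequent. None of the calls by distance in glial and vessel populations held under this measure, and the 3 populations called higher were all Meg3-rich.

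**Figure D4:**
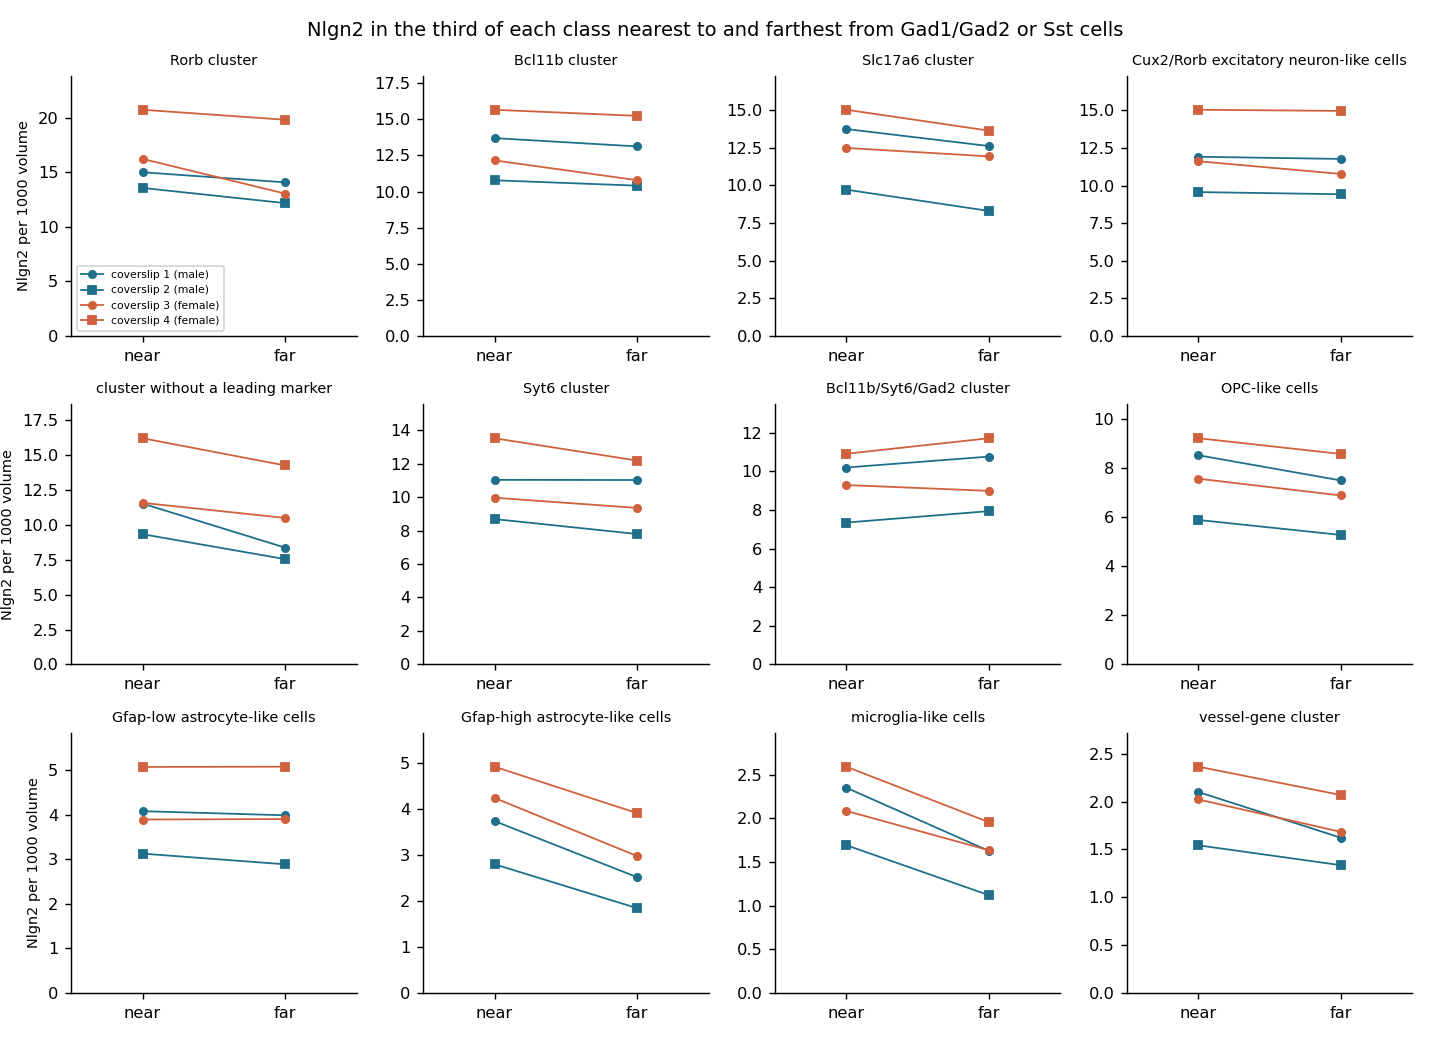
Nlgn2 counts per 1000 units of cell volume in the tertile of cells nearest to and farthest from Gad1/Gad2 or Sst cells, by population; each line joins the values of 1 coverslip. The near value is higher on 4 of 4 coverslips in microglia-like, Gfap-high astrocyte-like and OPC-like cells and in the vessel-gene cluster.

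Nlgn2 also varied with the kind of neighbours, in glia and in the Meg3-rich populations pooled. Each cell was given the Meg3-rich population most frequent among its 50 nearest cells, or none where fewer than 10 were Meg3-rich. This view was chosen after the values were seen and was not tested. Cells among Cux2/Rorb excitatory neuron-like cells are described below, but these neighbours did not go with the highest level in every population. Gfap-high astrocyte-like cells had a mean of 4.70 counts per 1000 volume units among Bcl11b cluster cells and 4.06 among Cux2/Rorb excitatory neuron-like cells. Among Sst inhibitory neuron-like cells they had 1.98, below the 3.04 among few Meg3-rich cells. OPC-like cells among Cux2/Rorb excitatory neuron-like cells had 10.46, 8.30, 9.80 and 12.36 counts per 1000 volume units, against 5.95, 4.31, 5.33 and 6.73 among few Meg3-rich cells. Those values did not overlap, and the ratio was 1.84 (1.76 to 1.93). Per gene count the ratio fell to 1.11 (1.10 to 1.11) and the values overlapped.

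Microglia-like cells had the highest mean ratio of the glial and vessel populations under both scalings. They had 2.60, 2.44, 2.26 and 3.76 among Cux2/Rorb excitatory neuron-like cells and 0.99, 0.71, 1.04 and 1.40 among few Meg3-rich cells, a ratio of 2.73 (2.17 to 3.45) per volume and 2.56 (2.40 to 2.79) per gene count. Gfap-low astrocyte-like cells had ratios of 2.51 (2.09 to 2.98) and 1.56 (1.41 to 1.67), and the vessel-gene cluster 1.66 and 1.60. The values of these 3 populations did not overlap. Gfap-high astrocyte-like cells had a ratio of 1.39 (1.19 to 1.77) per volume, with overlap, and 1.25 (1.14 to 1.39) per gene count, without overlap. The Meg3 share moved too, from 1.10% to 2.63% in microglia-like cells and from 2.29% to 5.90% in OPC-like cells; its part was not tested. The Mrc1/Lyve1 cluster was higher among Cux2/Rorb excitatory neuron-like cells on 3 of 4 coverslips (ratio 1.12 per volume). The shift was not particular to glia and vessel cells. All Meg3-rich populations pooled had a ratio of 1.72 (1.46 to 2.03) per volume, with overlap. Per gene count it was 1.37 (1.31 to 1.44), without overlap.

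**Figure D5:**
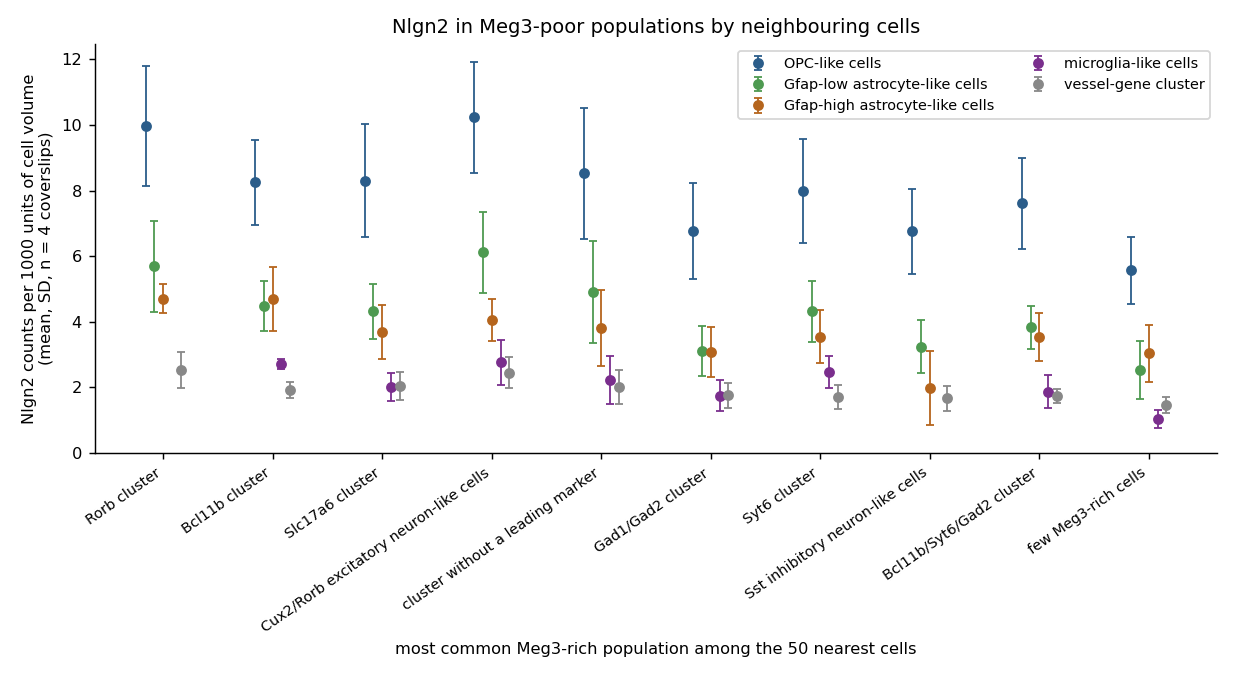
Nlgn2 level of glial and vessel populations by the Meg3-rich population most frequent among the 50 nearest cells, as means of 4 coverslips. Microglia-like cells range from 1.04 among few Meg3-rich cells to 2.77 among Cux2/Rorb excitatory neuron-like cells, in counts per 1000 volume units.

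Female coverslips were set against male ones last. Over all kept cells Nlgn2 was 8.78 and 6.96 counts per 1000 volume units on the male coverslips and 8.89 and 11.08 on the female ones; per 10000 gene counts it was 346.1 and 300.9 against 318.6 and 279.7. The female values were higher per volume without overlap, by a narrow margin, and overlapped per gene count. An edgeR fit with TMM factors gave a log2 difference of -0.06 ± 0.21, female over male (adjusted p = 0.925), with 1.43% of 140 genes called higher and 3.57% lower. With summed volume as offset the difference turned to 0.34 (adjusted p = 0.594). In the 16 populations edgeR called Nlgn2 in 0, 0 passed an unadjusted p of 0.05, and DESeq2 called 0; 0.223% of all such tests called a gene higher in female and 1.29% lower. The log2 differences ran from -0.28 in the Mrc1/Lyve1 cluster to 0.04 in Gfap-high astrocyte-like cells, with SE of 0.13 to 0.23, and 14 of 16 were below 0. With 2 coverslips of each sex and depth highest on the female coverslips, a difference of this size was not detectable.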

How the data were processed

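Per the labels, a custom MERFISH panel was imaged on 1 coverslip per sample; the deposited values are raw counts per segmented cell for 140 genes and 40 blank barcodes, with the volume and centre of each cell in a unit not stated. The software for decoding and for segmentation is not named in the labels or headers. Nothing in the files says which section of a coverslip carries which genotype.

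Cells with at least 20 gene counts were kept (7.96% of cells were left out). Counts of 32 marker genes, scaled to 200 per cell, were clustered in 60000 drawn cells (15000 per coverslip). Neighbours (15) came from scikit-learn 1.9.0 and clusters from leidenalg 0.10.2 (Leiden resolution 1). Every kept cell, drawn or not, then took the cluster most frequent among its 15 nearest of 16000 reference cells. A name needed at least 3 markers at 1.5-fold and above the blanks, thresholds set after seeing the data. A cluster of 14675 cells with a median of 42 gene counts was left out. Of the 16 populations in the fits, 1 is not reported here. Doublets were not called, and RNA of neighbouring cells inside an outline was not removed.

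Counts were summed per coverslip and population and tested in R 4.3.3 with edgeR 4.0.16 (quasi-likelihood; glmTreat at 2-fold where populations were compared with the others), with coverslip as a block and Benjamini-Hochberg adjustment over genes within each contrast at 0.05. DESeq2 1.42.0 was an alternative. The fits were tested on simulated data. Named genes were Nlgn2, the panel members of the inhibitory synapse and astrocyte contact lists, and the 5 most and 3 least correlated genes, with Meg3 and Gad1 for comparison. Members, populations and lists were chosen with earlier results of these data known. The number of probes per gene is not given, so levels of different genes are not set against each other. Nlgn2 sums per coverslip and population were at least 3387 counts, so the spread between coverslips and not counting error limits precision. The replicate numbers within each sex follow accession order and pair no samples.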

Additional observations from a re-analysis of the deposited data

Results flagged for a closer look

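In Cux2/Rorb excitatory neuron-like cells the near over far ratio of Nlgn2 per volume was 1.079 on coverslip 3, apart from 1.005 to 1.015 on the other coverslips. In the Bcl11b cluster it was 1.127 on coverslip 3, apart from 1.028 to 1.044. These were the only 2 of 48 sets of 4 coverslip values with a gap over range above Dixon's 95% critical value, and chance alone gives about 1 in 20.

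In Gfap-low astrocyte-like cells the log2 near over far value was above 0 on both male coverslips (mean 0.074) and below 0 on both female ones (mean -0.003). Female minus male was -0.077, and this difference was not tested.

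Cells left out of the comparisons also held Nlgn2. Cells under 20 gene counts had 0.601 counts per 1000 volume units on average (0.204 to 0.893 over coverslips), above the 0.000132 to 0.00256 that 3 counts would give, a limit that any such sum passes. Against the blank barcodes the margin was narrower: 4622, 5395, 3335 and 907 Nlgn2 counts on coverslips 1 to 4 stood beside 3073, 721, 183 and 188 for the highest blank. The cluster of low counts had 4.73 on average (1.27, 2.23, 3.51 and 11.9 on coverslips 1 to 4), beside 0.000433 to 0.0048 for 3 counts. Its 8782, 6043, 7010 and 7440 Nlgn2 counts stood beside 6727, 1510, 1071 and 153 for the highest blank, so that on coverslip 1 both kinds of cells were little above false decoding. Its level on coverslip 4 was the highest of the 4.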

How the results depend on the processing

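Of 739 alternative values for 79 results, 664 kept direction and side of the threshold, 29 lost it, 17 passed it, 21 turned direction and 8 counts or values moved. Populations over 2-fold higher per volume went from 1 to 0 with TMM factors and to 0 with no replicate block, and populations lower from 4 to 2 with TMM factors. OPC-like cells turned to -0.015 at resolution 2 and -0.15 with marker gates. In these settings they were set against other classes than the 15 populations, some of them joined in the fit at resolution 2. Their own level, with all cells pooled, was 7.49 counts per 1000 volume units at resolution 2 and 6.38 with marker gates. The mean over coverslips was 7.40 in the main clusters. Under the other scaling, neighbours that differed became 15 (volume order) and 13 (gene count order). In the volume order these turned: Slc17a6 over Cux2/Rorb -0.53, Gad1/Gad2 over Syt6 -0.35 and Bcl11b/Syt6/Gad2 over OPC-like -0.45. In the gene count order these turned: OPC-like over Cux2/Rorb -0.69, Syt6 over the cluster without a leading marker -0.11, that cluster over Bcl11b -0.17 and Bcl11b/Syt6/Gad2 over Slc17a6 -0.32. Leaving out each coverslip, ranges crossed 0 for Slc17a6 over Cux2/Rorb (-0.018 to 0.048), Syt6 over Sst (-0.011 to 0.097) and, per gene count, Gad1/Gad2 over Bcl11b/Syt6/Gad2 (-0.019 to 0.017). None of these 3 pairs had passed the test. The female difference over all kept cells was 0.34 with volume as offset and -0.14 to 0.0084 with each coverslip left out. With Gad1/Gad2 or Sst cells among the 30 nearest, 3 populations were higher and 1 lower, and Cux2/Rorb (-0.014), OPC-like (-0.075) and Gfap-low (-0.29) turned. With gene counts as offset Bcl11b near over far was -0.0095. Leaving out each coverslip gave 0 to 1 populations lower near; the 1, without coverslip 3, was Bcl11b/Syt6/Gad2. The cause of these changes was not tested, apart from the scaling itself. The vessel-gene cluster was called lower in every alternative fitted for it, at -2.48 to -1.92 per volume and -2.02 to -1.64 per gene count. The fits at clustering resolutions 0.5 and 2 covered OPC-like cells alone, so no other population was tested for a change of resolution. No paired analysis of the sexes was possible because their replicate numbers pair no samples. Nlgn2 depth did not limit population sums; the 4 coverslips did.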

Other observations

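Each coverslip held 2 sections that position separates but no label names. Over all kept cells the section with more Nlgn2 had 1.03 to 1.34 times the level per volume of the other section of its coverslip and 1.01 to 1.18 times per gene count. Per volume the ratio was 1.06 to 1.63 in microglia-like cells, 1.06 to 1.47 in OPC-like cells and 1.02 to 1.35 in the Rorb cluster.

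At a clustering resolution of 2, Nlgn2 differed between parts of some populations. The values here pool all cells of the 4 coverslips, without a spread and without a test. Among clusters of upper layer markers, one led by Rorb and Cux2 together had 13.55 counts per 1000 volume units, the one led by Rorb 15.82 and the one led by Cux2 11.35. Cells with vessel genes separated into a cluster led by the endothelial genes Cldn5 and Pecam1 (1.67) and one led by the pericyte gene Pdgfrb (2.24). A cluster led by Mrc1 and Lyve1 had 3.51. A cluster led by Sox9, Aqp4 and Pdgfrb had 1.88. It held 21601 cells, more than the whole Mrc1/Lyve1 cluster (16923), so it was not a part of that cluster alone. A cluster led by Vip, the gene of an interneuron peptide, had 5.82, with a median of 67 gene counts per cell.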
